A study of Mus musculus with 2 samples.

Results

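T and NK cell barcodes were examined in a droplet-based single-cell RNA-seq experiment on cells obtained by perfusion of mouse liver. A barcode stands for the RNA of 1 droplet, and each count is a unique molecular identifier (UMI), that is, 1 captured transcript. A barcode was taken as a T or NK cell when it held 5 or more UMIs summed over Cd3d, Cd3e, Cd3g, Trac, Trbc2, Nkg7, Gzma, Klre1, Ncr1 and Cd160, and fewer than 15 UMIs summed over the macrophage genes C1qa, C1qb, C1qc, Cd5l, Vsig4 and Clec4f. This gave 137 of 4513 barcodes: 126 from tetYAP 4W and 11 from the control. The members were therefore chosen from the values themselves, and the levels of these genes are given as a description only.

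Both libraries came from C57BL/6 mice that carried LaptTA, a tetracycline-controlled transactivator driven by the liver-restricted LAP promoter. The control mouse (LaptTA;WT) had no inducible YAP. The tetYAP 4W mouse (LaptTA; tetYAP) also carried a tetracycline-responsive transgene for a mutant YAP that escapes inhibition by phosphorylation, and the transgene was kept off by doxycycline in the food and switched on from 4 weeks of age by a return to regular diet, for 4 weeks. With a single library for each genotype and no replicate, no test was made, since barcodes of 1 library are not replicates, and every interval below is a 95% interval that covers counting error only. Since the promoter acts in hepatocytes, lymphocytes are not the cells in which the transgene was designed to be active. The label of the samples names hepatocytes as the cell type, and the markers below go against that label for these barcodes.

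T cells recognise antigen through a receptor of 2 variable chains (alpha and beta, or gamma and delta) that reaches the surface only together with the CD3 chains, whose cytoplasmic tails carry the activation motifs called ITAMs. NK cells have no rearranged receptor. They read a balance of activating and inhibitory receptors, such as NKp46 (Ncr1), NKG2D (Klrk1) and the Ly49 family (Klra genes), and several of the activating ones signal through the ITAM adaptors DAP12 (Tyrobp) and the Fc receptor gamma chain (Fcer1g). Both cell types kill with perforin and granzymes, and both are abundant among the lymphocytes of the liver, where cells with the chemokine receptor CXCR6 patrol or reside in the sinusoids.

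The sequence just upstream of the start site is shown for 6 genes that set apart barcodes with and without CD3 UMIs. The first 3 are genes of NK and cytotoxic cells that belong to the rule, and the other 3 were higher in barcodes with CD3 UMIs and did not enter the rule. Capitals mark 3 short strings read on both strands, TGTGGT (a core bound by RUNX factors), TCACAC (a core bound by T-box factors such as T-bet and Eomes) and AGGAAG (a core bound by ETS factors). Each stretch is the 120 bases before the RefSeq gene start on GRCm38.p6, written 5′ to 3′ on the strand of the gene, and the marked strings do not overlap one another.
Ncr1, chr7:4337595-4337714, plus strand: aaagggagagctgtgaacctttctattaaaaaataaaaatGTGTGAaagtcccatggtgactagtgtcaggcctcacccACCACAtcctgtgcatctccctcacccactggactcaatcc
Gzma, chr13:113100982-113101101, minus strand: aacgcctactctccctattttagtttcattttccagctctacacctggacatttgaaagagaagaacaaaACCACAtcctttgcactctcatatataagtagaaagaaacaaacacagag
Nkg7, chr7:43437018-43437137, plus strand: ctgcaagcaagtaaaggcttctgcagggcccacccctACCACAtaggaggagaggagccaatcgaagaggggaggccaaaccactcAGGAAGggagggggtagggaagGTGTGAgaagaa
Cxcr6, chr9:123806357-123806476, plus strand: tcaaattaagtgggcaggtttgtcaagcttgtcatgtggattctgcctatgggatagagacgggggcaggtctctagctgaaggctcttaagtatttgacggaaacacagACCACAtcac
Ltb, chr17:35194387-35194506, plus strand: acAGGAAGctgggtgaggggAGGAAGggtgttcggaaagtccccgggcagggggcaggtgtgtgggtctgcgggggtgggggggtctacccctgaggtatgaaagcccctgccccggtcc
Ms4a6b, chr19:11518439-11518558, plus strand: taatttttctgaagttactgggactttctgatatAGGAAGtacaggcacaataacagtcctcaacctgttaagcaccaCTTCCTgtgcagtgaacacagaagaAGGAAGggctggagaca

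In the 250 bases upstream of the start sites, TGTGGT or its complement occurred in 4 of the 14 genes outside the rule with a sequence that were lower in barcodes with CD3 UMIs than in those without (28.6%), namely Ccl3, Gzmb, Prf1 and Sytl3. It occurred in 1 of the 8 genes that were higher (12.5%), in 12.9% of the 2590 tested genes with a sequence and in 15.9% of 27025 genes in the table. TCACAC occurred in 2 of the 14 and 2 of the 8, against 13.9% of all genes, and AGGAAG in 5 of the 14 and 5 of the 8, against 32.3%. Among the rule genes, whose difference between the sets follows in part from the rule, TGTGGT also occurred in Gzma, Klre1, Ncr1 and Nkg7. With so few genes nothing is read from these shares. These are matches of letters and say nothing of binding. Sequences were matched by symbol for 29 of 44 genes; Cd28, H2afz, Sept11, Trbc2, Cd8b1, Klrd1, Tyrobp, Trac, Ccl5, Ccl4, Cd7, Ifi27l2a, Ly6a, Lgals1 and Reep5 had none.

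T and NK cell barcodes made up 8.27% of the 1524 tetYAP 4W barcodes (exact binomial interval 6.93 to 9.76) and 0.368% of the 2989 control barcodes (0.184 to 0.658). The 2 intervals did not overlap, but library, animal and sex differed with the genotype and cannot be told apart from it. Xist had 519 UMIs in the tetYAP 4W members and 0 in the control members, and Y-linked genes had 0 and 3. The table holds at most 3000 barcodes per condition after down-sampling, and barcodes above 7500 UMIs had been removed, so the shares are of the barcodes kept. Far fewer were kept of tetYAP 4W (1524) than of the control (2989). The paper mentions the draw of 3000 per condition before the UMI limit. In that order, and if both libraries held 3000, the limit removed far more tetYAP 4W than control barcodes. The numbers removed are not given, and the part of the limit in the 2 shares was not tested. Without barcodes above 30% mitochondrial UMIs the tetYAP 4W share was 18.0%. The other tetYAP 4W barcodes had a median mitochondrial share of 40.1% and the members 22.6%.

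Most barcodes lay far from the limit of the rule, but part of the members, in particular of the control, lay near it. No UMI of the 10 genes was found in 89.8% of tetYAP 4W and 99.4% of control barcodes. Just inside the limit, 7 tetYAP 4W barcodes held 5 UMIs and 4 held 6. Just outside it, 4 held 4 UMIs, 1 held 3 and 3 held 2. Of the 11 control members 2 held 5 UMIs, 2 held 6 and 1 held 7. Just outside the limit 2 control barcodes held 4 UMIs and 1 held 3. Another 13 tetYAP 4W and 4 control barcodes held 1 UMI. A further tetYAP 4W barcode with 6 UMIs, 3 of them of CD3 genes, was left out for its 117 macrophage UMIs.

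The tetYAP 4W members held 612435 UMIs, with a median of 4807.5 per barcode (lowest 2540, highest 7402), and the control members 48012 UMIs, with a median of 4282. The other tetYAP 4W barcodes had a median of 4101 UMIs and the other control barcodes 3116. The 2 libraries shared 0 barcode sequences. RNA of hepatocytes was found in every member, with a median of 364.5 UMIs over 12 hepatocyte markers in the tetYAP 4W members. Erythroid tetYAP 4W barcodes, taken as those with 100 or more UMIs of 5 erythroid genes and fewer than 15 macrophage UMIs, which should lack both hepatocyte and lymphocyte genes, held a median of 345 such UMIs at a median depth of 3390. These 38 erythroid barcodes serve below as the measure of free RNA.

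CD3 chains divided the tetYAP 4W members into 103 barcodes with 2 or more UMIs of Cd3d, Cd3e and Cd3g (81.7%, 73.9 to 88.1), 3 with exactly 1 and 20 with none. They are called Cd3-positive and Cd3-zero below. The 3 genes form a cluster on chromosome 9, from 44969572 to 45009663. Cd3d, Cd3e and Cd3g had 257, 195 and 317 UMIs in the Cd3-positive barcodes, and Trac, the constant region of the alpha chain, had 145. All 4 were at 0 in the Cd3-zero barcodes, which for Trac allows a share of up to about 15% of barcodes with a UMI. Such a limit, here and below, is 3 over the number of barcodes, a little under the exact binomial limit. In the control, 10 of the 11 members were Cd3-positive and 1 was Cd3-zero.

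The markers of T and NK cells followed this division. Over 10 T cell markers the Cd3-positive barcodes held a median of 14 UMIs (lowest 2, highest 39) and the Cd3-zero barcodes a median of 0 (highest 4). Over 8 NK cell markers the Cd3-zero barcodes held a median of 23.5 UMIs (lowest 0, highest 52) and the Cd3-positive barcodes a median of 1 (highest 31). Erythroid barcodes held 1 UMI of the T cell markers in all and 22 of the NK cell markers, all of them Tyrobp or Fcer1g. The markers overlap with the genes of the rule, so the match of sets and markers is in part built in.

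**Figure D1:**
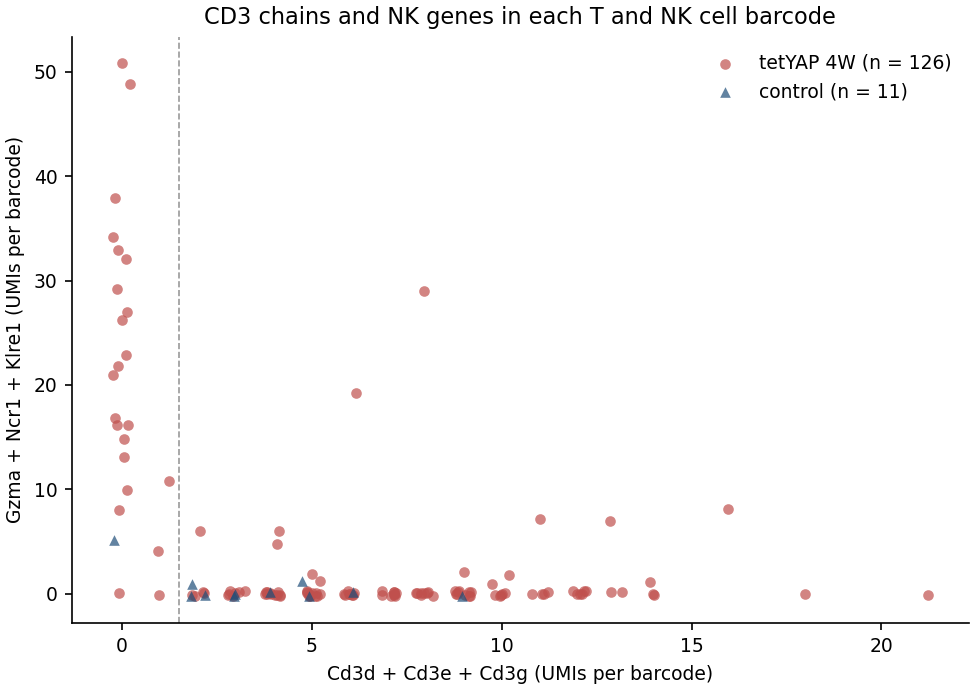
Each point is 1 of the 137 T and NK cell barcodes, with the summed UMIs of Cd3d, Cd3e and Cd3g on the horizontal axis and those of Gzma, Ncr1 and Klre1 on the vertical axis; points are shifted by up to 0.25 UMIs to show overlaps, and the dashed line marks the limit of 2 CD3 UMIs. Of the 103 tetYAP 4W barcodes right of the line, 89 held 0 UMIs of the 3 NK cell genes, while 19 of the 20 barcodes without CD3 UMIs held 5 or more.

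Most Cd3-zero barcodes held several of the NK cell genes of the rule. Gzma, a granzyme, was found in 19 of the 20 barcodes, with a median of 19 UMIs and a highest value of 44. Ncr1, the receptor NKp46 that marks NK cells across strains, was found in 17, with a median of 3 and a highest value of 9. Every barcode with Ncr1 also held Gzma, and Klre1, another NK cell receptor, was found in 14. Nkg7, a protein of cytotoxic granules, was found in all 20 with a median of 9.5 UMIs. Since a Cd3-zero barcode could reach the limit of 5 UMIs only through the other genes of the rule, these levels describe the choice.

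Several NK cell genes outside the rule were also found in these barcodes. Since the barcodes were chosen mostly through NK cell genes, these values are a description too and no separate support. Tyrobp was found in 19 of 20 (median 9, highest 26), Fcer1g in 19 (median 6.5, highest 12), Klrd1, the CD94 partner of NKG2 receptors, in 18, Irf8 in 16 and Prf1, perforin, in 14. Eomes, a T-box factor of mature NK cells, was found in 6. Klra7, an Ly49 gene, was found in 11, from 1 to 19 UMIs, and was absent from 9. Ly49 genes are near-identical in places, so UMIs may be shared among them. Ly49 receptors are known to be turned on in some NK cells and not in others.

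The barcode with the fewest rule UMIs stood apart from the other 19. It held 5 rule UMIs, 8 UMIs of Trbc1 and 3 of Trbc2, the 2 constant regions of the beta chain, and 0 of Gzma, Ncr1, Klre1, Tyrobp, Fcer1g and Ccl5. Trbc1 was also found in 12 of the 17 barcodes with Ncr1. The level of Trbc1 was 405 CPM (counts of the gene per 1000000 summed UMIs) in the Cd3-zero and 667 CPM in the Cd3-positive barcodes, a log2 ratio of 0.72 (0.23 to 1.24), and Trbc1 was not beyond 2-fold in the main comparison or in any of 13 alternatives. Trbc2, a gene of the rule, had 107 and 832 CPM.

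Of the 3 barcodes with exactly 1 CD3 UMI, the first held 28 rule UMIs with 6 of Gzma, 2 of Ncr1 and 19 of Tyrobp. The second held 6, with 1 of Gzma and 2 of Ncr1, and the third held 5, with 2 each of Trbc2 and Nkg7 and 0 of Gzma, Ncr1, Klre1 and Tyrobp.

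Outside the rule, 12 of 3242 genes were higher in the Cd3-positive than in the Cd3-zero barcodes (0.37% of the genes compared) and 23 were lower (0.709%). A gene was counted when it had at least 20 UMIs over both sets and its interval lay wholly beyond 2-fold. Levels compared are CPM over the summed UMIs of a set, which were 504967 for Cd3-positive and 93785 for Cd3-zero, and the median log2 ratio of all genes was 0.09. TMM scaling moved all ratios up by 0.18 on the log2 scale. The Cd3-positive barcodes were somewhat deeper, with medians of 4860 and 4232 UMIs per barcode. Their mitochondrial share was somewhat lower, with medians of 22.6% and 26.3%.

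Ltb, which encodes lymphotoxin beta, had a median of 2 UMIs (lowest 0, highest 10) in the Cd3-positive barcodes and was found in 87 of 103, against 3 of 20 Cd3-zero barcodes, a log2 ratio of 3.64 (2.27 to 5.53). Ms4a6b, a membrane protein of the MS4A family, had 177 UMIs in 77 barcodes against 0. With a floor of 3 UMIs per set in place of 0 it was 10.96-fold higher, a log2 ratio of 3.45 with a lower limit of 3.14. Cxcr6 had 160 UMIs in 60 barcodes against 0, 9.91-fold higher with the floor (log2 lower limit 2.99). In erythroid barcodes Ltb and Ms4a6b had 1 UMI each and Cxcr6 had 0.

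A further 4 T cell genes had 0 UMIs in the Cd3-zero barcodes, while other coreceptor and signalling genes were found there, such as Cd2 with 11 UMIs in 7 of 20. Cd28, the main costimulatory receptor of T cells, had 69 UMIs in 40 Cd3-positive barcodes, 4.27-fold higher with the floor (log2 lower limit 1.76). Bcl11b, a factor that holds cells in the T lineage, had 66 UMIs in 52 barcodes, 4.09-fold higher with the floor (log2 lower limit 1.69). Lef1, a factor of the Wnt pathway active in naive T cells, had 48 UMIs in 34 barcodes, 2.97-fold higher with the floor (log2 lower limit 1.22). Cd8b1, the beta chain of CD8, had 47 UMIs in 19, 2.91-fold higher with the floor (log2 lower limit 1.19). With 93785 UMIs in all the Cd3-zero barcodes, larger bounds were out of reach for genes of this level.

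The other genes on the higher side were Ifi27l2a (385 UMIs against 6, log2 ratio 3.57), Ly6a (131 against 3, log2 ratio 3.02), Itpkb, a kinase of inositol phosphates that acts in T cell receptor signalling (99 against 3, log2 ratio 2.62), Slfn1 and the ribosomal protein gene Rpl12. Ifi27l2a and Ly6a, both induced by interferon, were also found in 31.6% and 18.4% of erythroid barcodes, and the part of free RNA in their UMIs was not tested. In the Cd3-positive barcodes they were found in 82.5% (73.8 to 89.3) and 54.4% (44.3 to 64.2).

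The lowest ratios were those of Ly49 genes. Klra7 had 4 UMIs in 2 of 103 Cd3-positive barcodes and 46 UMIs in 11 of 20 Cd3-zero barcodes, a log2 ratio of -5.95 (-7.89 to -4.50). Klra9 and Klra4 had log2 ratios of -4.93 and -4.68. Irf8, a factor of the interferon family known in NK and myeloid cells, had 8 and 31 UMIs, a log2 ratio of -4.38 (-5.72 to -3.23). Prf1 had 7 UMIs in 6 Cd3-positive barcodes and 22 in 14 Cd3-zero barcodes, a log2 ratio of -4.08 (-5.55 to -2.80).

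Both ITAM adaptors were lower in Cd3-positive barcodes. Tyrobp had a log2 ratio of -3.63 (-4.01 to -3.27) and Fcer1g of -3.00 (-3.42 to -2.59). In the Cd3-positive barcodes Tyrobp was found in 30.1% (21.5 to 39.9) and in erythroid barcodes in 26.3%, and Fcer1g in 33.0% and 21.1%. In level, Tyrobp was at 174 and Fcer1g at 162 CPM in Cd3-positive barcodes, and the 2 genes together at 155 CPM in erythroid barcodes. Of the Cd3-positive barcodes, 5 held 5 or more UMIs of Tyrobp and 6 held 5 or more of Fcer1g. No erythroid barcode held more than 3 UMIs of the 2 genes together. In the Cd3-positive barcodes 29 of the 88 Tyrobp UMIs came from 2 barcodes. The part of free RNA in these UMIs was not tested. Hcst, the adaptor DAP10 that serves NKG2D and lies next to Tyrobp on chromosome 7, differed little, at 347 CPM in Cd3-positive and 363 in Cd3-zero barcodes (log2 ratio -0.07, -0.60 to 0.51).

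Chemokines and effector proteins were shared by both sets at different levels. Ccl5 was the most abundant, with a median of 28 UMIs per Cd3-zero barcode (lowest 0, highest 133) and 3 per Cd3-positive barcode (lowest 0, highest 104), a log2 ratio of -2.05 (-2.18 to -1.92). The ranges of the 2 sets overlapped, and Ccl5 was found in 64 of 103 and 19 of 20 barcodes. Ccl4 had a log2 ratio of -1.79 and Ccl3 of -3.12, and these 2 genes overlap on chromosome 11. Gzmb, granzyme B, was found in 16 of 103 Cd3-positive and 10 of 20 Cd3-zero barcodes, a log2 ratio of -2.39 (-3.12 to -1.65). Serpinb9 and Serpinb6b, protease inhibitors carried by cytotoxic cells, had ratios of -2.43 and -2.54. Lgals1, galectin 1, had a median of 7 UMIs in Cd3-zero and 1 in Cd3-positive barcodes, a log2 ratio of -2.34.

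**Figure D2:**
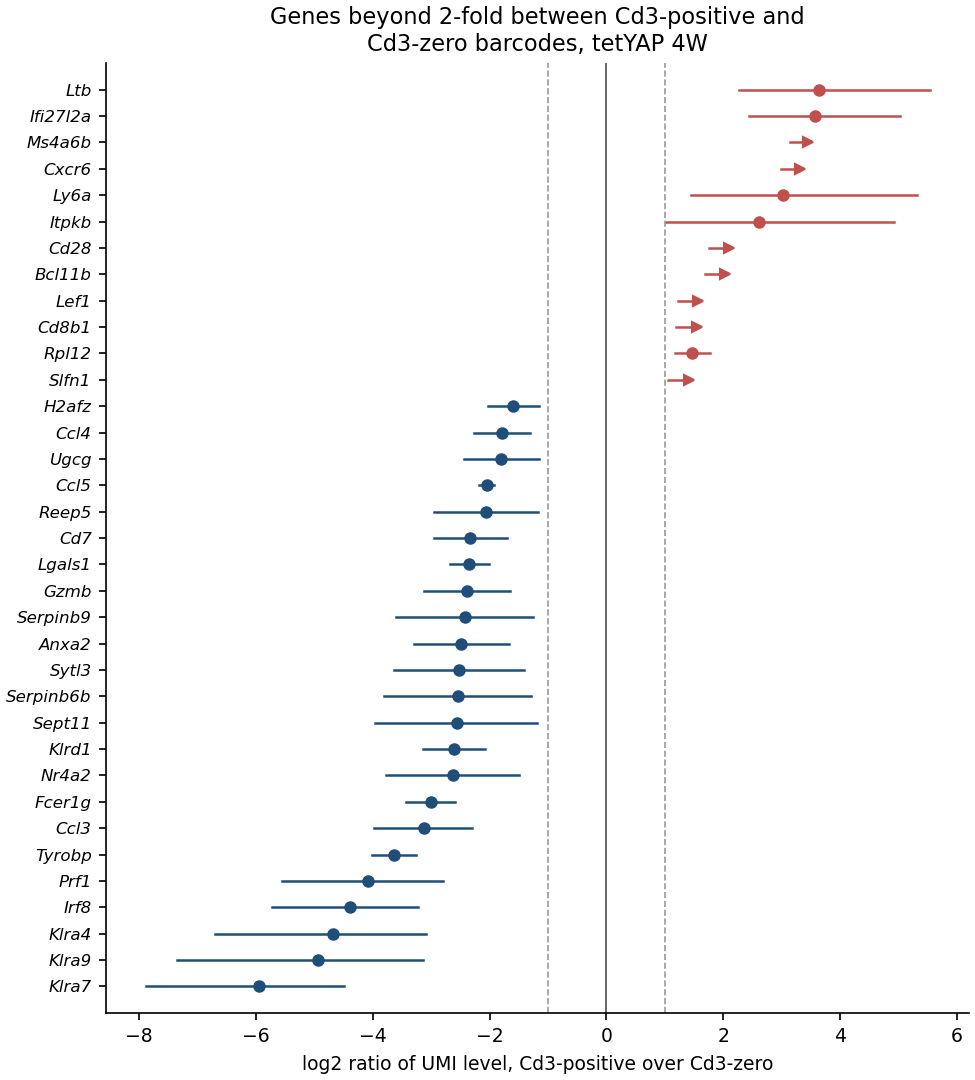
Log2 ratio of the UMI level in 103 Cd3-positive over 20 Cd3-zero tetYAP 4W barcodes for the 35 genes outside the rule whose exact 95% interval (line) lay wholly beyond 2-fold (dashed lines). Arrowheads are bounds for genes with 0 UMIs in the Cd3-zero barcodes, computed with a floor of 3 UMIs, and the line reaches to the lower 95% limit. The Ly49 genes Klra7, Klra9 and Klra4 have the lowest values, and the bounds cannot be ranked against the values.

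The gene groups are described by their members outside the rule that had at least 20 UMIs, with a gene at 0 in 1 set entered at its bound. Of the 19 NK receptors listed 8 passed this limit, of which 4 were lower in Cd3-positive barcodes (Klrd1, Klra4, Klra7 and Klra9) and 0 higher, with a median log2 ratio of -1.94. Klrk1 (-1.27), Klrc2 (-1.16), Klrb1c (-1.13) and Klrc1 (-0.94) had intervals that reached inside 2-fold. Of 13 cytotoxic effectors 9 passed, of which 4 were lower (Gzmb, Prf1, Serpinb9 and Serpinb6b) and 0 higher, with a median of -1.15. Srgn and Lamp1, of the same group, had ratios of 0.86 and 0.33. Of 7 cytokines and chemokines 3 were lower (Ccl3, Ccl4 and Ccl5) and 1 was higher (Ltb), with a median of 0.31. Of 6 NK cell and innate lymphoid factors only Irf8 was beyond 2-fold, and Id2, Tbx21 and Gata3 had ratios of 0.50, -0.77 and -0.62.

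Among the T cell groups most members were not beyond 2-fold. Of 14 T cell coreceptors and signalling genes 3 were higher (Cd8b1, Cd28 and Bcl11b) and 0 lower, with a median of 0.98, and all 14 had a ratio above 0, 6 of them as bounds. Lat, an adaptor just below the T cell receptor, had 71 UMIs against 2 (log2 ratio 2.72, 0.81 to 5.79). Lck, the kinase that starts the signal, had 164 and 160 CPM (log2 ratio 0.04, -0.76 to 0.94). Of 9 naive and memory T cell genes 2 were higher (Lef1 and Ltb), with a median of 1.23, and of 11 interferon-stimulated genes 1 (Ly6a), with a median of 1.03. Of the 5 genes of the T cell receptor complex outside the rule 0 were beyond 2-fold, with a median of 0.74. Of 8 residency genes Cxcr6 was higher and Cd7 lower, with a median of 0.47, and of 10 chemokine and cytokine receptors Cxcr6 was higher, with a median of 0.21. Of 3 genes of circulating NK cells Prf1 was lower, with a median of -0.66, and the adaptors Tyrobp, Fcer1g and Hcst had a median of -3.00. In the regulatory and helper group (5 members), the proliferation group (4) and the immediate early group (9) 0 members were beyond 2-fold, with medians of 0.22, 0.85 and -0.43. The exhaustion and inhibitory receptor group had 2 members with enough UMIs, of which Nr4a2, a nuclear receptor, was lower (-2.62).

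**Figure D3:**
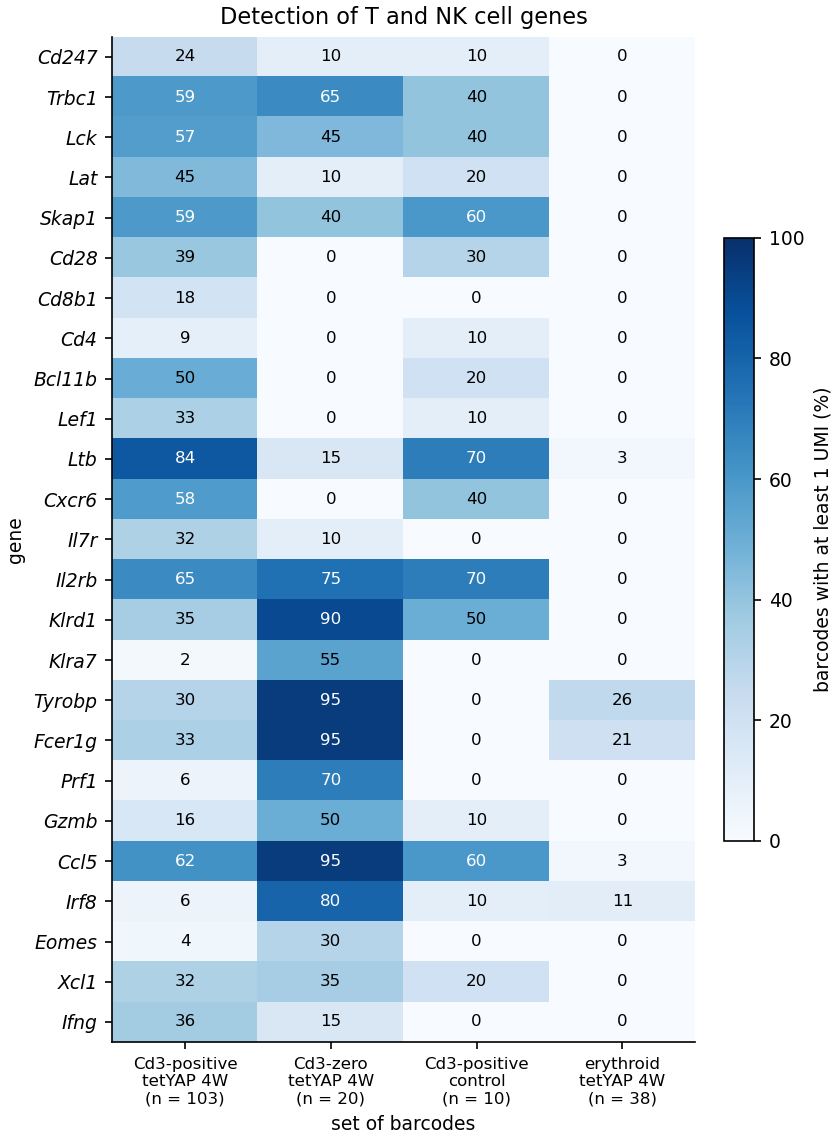
Share of barcodes with at least 1 UMI, in percent, for 25 genes outside the rule (rows) in 103 Cd3-positive and 20 Cd3-zero tetYAP 4W barcodes, 10 Cd3-positive control barcodes and 38 erythroid tetYAP 4W barcodes as a measure of free RNA. Tyrobp and Fcer1g were found in 95% of Cd3-zero barcodes and at 30% and 33% in Cd3-positive ones against 26% and 21% in erythroid ones, while Cd28, Bcl11b, Lef1 and Cxcr6 were at 0% in Cd3-zero and erythroid barcodes.

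Few Cd3-positive barcodes carried NK cell genes of the rule. Gzma was found in 4 of 103, with 38 of its 51 UMIs in 2 barcodes, and Ncr1 in 3, with 9 of its 11 UMIs in 2 barcodes. Only 1 barcode held both. Klre1 was found in 13. Nkg7, by contrast, was found in 80 of 103 with a median of 3 UMIs, and Klrk1, Klrd1 and Klrb1c in 40, 36 and 22. Ctsw, a protease of cytotoxic cells, was found in 47. None of these was found in erythroid barcodes.

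The receptor chains of Cd3-positive barcodes could be read in part. The transcripts are counted near their ends, so that detection of a gene in a barcode is incomplete. Trac was found in 71 of 103 barcodes and a gamma chain constant region (Tcrg-C1, Tcrg-C2 or Tcrg-C4) in 32, of which 23 also held Trac. Tcrg-C1 and Tcrg-C2 are near-identical. Trdc, the delta chain, was found in 5 barcodes, of which 2 also held Trac. Both Trbc1 and Trbc2 were found in 58 barcodes, Trbc2 alone in 39, Trbc1 alone in 3 and neither in 3. Cd160, a gene of the rule, was found in 18 barcodes, and 10 of these held a gamma chain.

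Coreceptors were found in a minority. Cd8a or Cd8b1 was found in 20 barcodes, Cd4 in 9 and both kinds in 0. Cd8a and Cd8b1 were found together in 16 of the 20. The other 74 barcodes held neither CD4 nor CD8. Lef1 was found in 11 of the 20 barcodes with CD8 and in 23 of the 83 without. Cd4 transcripts are also known in macrophages, and 14 of the 1398 other tetYAP 4W barcodes held one.

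Over the whole regulatory and helper list 77 of 103 Cd3-positive barcodes held a UMI. Over the exhaustion and inhibitory receptor list 43 of 103 did. In Cd3-zero barcodes these were 12 and 13 of 20, and in erythroid barcodes 10 and 1 of 38. In the other tetYAP 4W barcodes they were 638 and 190 of 1398. The part of free RNA in these UMIs was not tested. Of the first list Maf, a factor of several helper T cell types, was found in 39 barcodes, Tnfrsf18 in 27 and Ikzf2 in 17. Against the other tetYAP 4W barcodes Tnfrsf18 and Ikzf2 were higher beyond 2-fold in all members, and Maf was not. Foxp3, the factor of regulatory T cells, was found in 3 of 103 barcodes and Il2ra in 10, with no barcode holding both. Pdcd1 (PD-1) was found in 5 barcodes, Ctla4 in 8, Havcr2 in 3 and Lag3 in 1, while Tigit had 0 UMIs, which allows up to 2.91% of barcodes with a UMI and sets no limit on cells that express it. Tox, a factor of chronically stimulated T cells, was found in 15. Mki67, a proliferation marker, was found in 3 barcodes and Top2a in 7. Most of these genes had few UMIs, and they were named after their values were seen.

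Among cytokines, Ifng, interferon gamma, was found in 37 of 103 Cd3-positive and 3 of 20 Cd3-zero barcodes, Xcl1, a chemokine for cross-presenting dendritic cells, in 33 and 7. Their log2 ratios between the sets did not lie wholly beyond 2-fold (Ifng 1.40, -0.03 to 3.33). Both were found in 16 Cd3-positive barcodes, Xcl1 without Ifng in 17 and Ifng without Xcl1 in 21. Il4 had 15 UMIs in 8 barcodes and Tnf 4 UMIs in 3.

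Cxcr6 split the Cd3-positive barcodes into 60 with a UMI and 43 without. This division was made after the values were seen and uses the same cells, so it is a description. The Cxcr6-detected barcodes were somewhat deeper, with a median of 4990 UMIs against 4447. Of 2799 genes, 10 were higher (0.357%) and 8 lower (0.286%) in the Cxcr6-detected barcodes, with a median log2 ratio of all genes of 0.10. When each barcode was thinned to 2000 UMIs these counts were 1 and 2.

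Genes that guide T cells to and from lymph nodes were found mainly in the Cxcr6-zero barcodes. Ccr7, the receptor for lymph node entry, was found in 13 of 43 Cxcr6-zero barcodes (30.2%, 17.2 to 46.1) and in 1 of 60 Cxcr6-detected ones (1.67%, 0.0422 to 8.94). S1pr1, the receptor for exit from lymph nodes, was found in 18 and 6, Il7r, the IL-7 receptor, in 24 and 9, and Klf2, a factor that turns on S1pr1, in 29 and 20. For each of these 4 genes the intervals of the 2 shares did not overlap. How many of all genes had shares with such intervals was not counted, so this is not read as particular to these genes. In UMI level Ccr7, Il7r, S1pr1 and Klf2 were all beyond 2-fold. Of the 9 naive and memory genes with at least 20 UMIs 5 were lower in the Cxcr6-detected barcodes and 0 higher, with a median log2 ratio of -2.12. Klf2 was also found in 18.4% of erythroid barcodes.

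Several receptors and products of effector cells, named after their values were seen, were found in a larger share of the Cxcr6-detected barcodes, which were also the deeper ones. Il2rb, the shared beta chain of the IL-2 and IL-15 receptors, was found in 55 of 60 (91.7%, 81.6 to 97.2) and 12 of 43 (27.9%, 15.3 to 43.7). Nkg7, a gene of the rule and so given as a description only, was found in 59 and 21. Ccl5 was found in 49 and 15, Ccr2 in 36 and 5, Klrk1 in 32 and 8 and Ifng in 30 and 7. Xcl1 and Cxcr3 were found in 27 and 6 each, and Klrb1c (NK1.1) in 19 and 3. For each of these the intervals of the 2 shares did not overlap. Without a count over all genes this again is not read as particular to them. Tbx21, which encodes T-bet, was found in 13 and 1 and the protease gene Mmp9 in 16 and 1, and for Mmp9 the intervals did not overlap. All 8 barcodes with Il4 held Cxcr6. In UMI level 0 of 4 cytotoxic effectors, 0 of 7 cytokines and chemokines and 0 of 5 NK receptors were beyond 2-fold, and of 7 chemokine and cytokine receptors 1 was higher and 2 were lower. Ccl5 was found more often but not at a higher summed level, with 2138 and 2352 CPM.

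In UMI level the genes beyond 2-fold in the Cxcr6-detected barcodes included Ccr2 (log2 ratio 2.57, 1.44 to 3.94), Isg15, an interferon-stimulated gene (2.39), Asb2 (4.12), and Id2, a factor of innate-like and effector lymphocytes (1.65, 1.22 to 2.10). Cd69, a marker of activation and residency, was found in 16 of 60 and 12 of 43, Bcl11b in 32 and 20, Lef1 in 17 and 17 and Cd160 in 10 and 8, with intervals that overlapped. A CD8 chain was found in 7 of 60 and 13 of 43, also with overlapping intervals. Trac was found in 48 (80.0%, 67.7 to 89.2) and 23 (53.5%, 37.7 to 68.8), with intervals that just overlapped. Trac and Cd160 are genes of the rule.

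**Figure D4:**
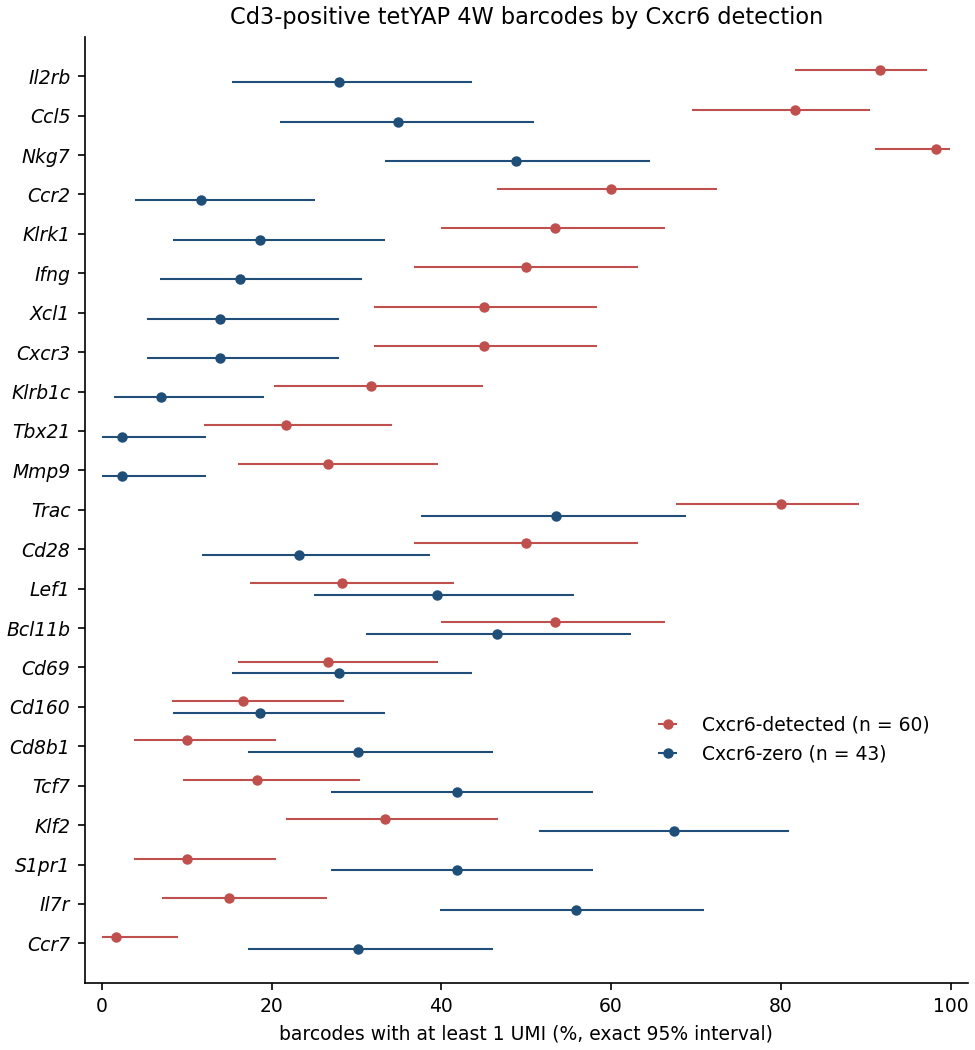
Share of barcodes with at least 1 UMI, in percent, for 23 genes in Cd3-positive tetYAP 4W barcodes with (n = 60) and without (n = 43) a UMI of Cxcr6; points are shares and lines exact 95% binomial intervals. Il2rb, Nkg7 and Ccr2 lie far higher in the Cxcr6-detected barcodes, Ccr7, Il7r and S1pr1 higher in the Cxcr6-zero barcodes, and Lef1, Bcl11b, Cd69 and Cd160 overlap. Nkg7, Trac and Cd160 are genes of the rule and are given as a description only.

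Set against the 1398 other tetYAP 4W barcodes, which include every other cell type of the library, 614 of 10532 genes outside the rule were higher in the members (5.83%) and 263 lower (2.5%), with a median log2 ratio of all genes of 0.19. This split depended on the scaling. With totals that left out mitochondrial and the 50 most abundant genes it was 349 higher and 565 lower, and with TMM factors, which moved all ratios by -0.34, it was 439 and 438. Of the 614 genes 75 were mitochondrial or ribosomal protein genes. The highest ratios outside the rule included those of Lat (73 UMIs against 1), Il2rb (222 against 5), Trbc1 (377 against 11), Txk, a kinase of T and NK cells (136 against 4), Ctsw (97 against 3), Skap1, an adaptor of T cell adhesion (122 against 4), Prf1 (30 against 1), Gata3 (27 against 1) and Cd6 (27 against 1). Their log2 ratios lay between 8.09 and 9.52, and that of Il2rb was 8.80 (7.56 to 10.44). Ccl5 had 2090 UMIs in the members and 84 in the other barcodes, a log2 ratio of 7.97 (7.65 to 8.30).

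Markers of other cells were found in some Cd3-positive barcodes. Over 8 B cell markers 2 of 103 held 5 or more UMIs, with a highest value of 60, and Igkc was found in 3. Over 9 monocyte and neutrophil markers, which include Ccr2 and Ly6c2, 10 of 103 held 5 or more. S100a9, Retnlg, Chil3, Csf3r, Cxcr2 and F13a1 were at 0. Of the 180 UMIs of these markers, 110 were of Ly6c2 and 69 of Ccr2. Ccr2 was named above among receptors of effector cells, so these sums need not mark another cell type. Over 10 macrophage markers 29 held 5 or more, with a highest value of 13 and a median of 3, the same median as in erythroid barcodes. In Cd3-zero barcodes the macrophage median was 3.5 and the highest value 12. Without the barcodes with 5 or more UMIs of B cell, myeloid, endothelial or macrophage markers, 7 genes were higher and 12 lower in Cd3-positive barcodes, in place of 12 and 23, and Tyrobp, Fcer1g, Klra7, Prf1 and Klrd1 stayed beyond 2-fold. In Cd3-positive barcodes the myeloid part of this filter rests mostly on Ly6c2 and Ccr2, so it may also remove T cells. The part of other cells in these values was not tested beyond this.

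Between the libraries, 11 control members gave little to compare. Of 3565 genes 22 were higher in the tetYAP 4W members (0.617%) and 42 lower (1.18%), with a median log2 ratio of -0.05. With TMM factors, which moved all ratios by 0.46, the split was 36 and 27. All 42 lower genes and 21 of the 22 higher ones lay on the same side, beyond 2-fold, in the other barcodes of the 2 libraries, where 22% of 11299 genes were higher in tetYAP 4W and 4.17% lower. The exception was the splicing factor gene Srsf5. The lower genes included products of hepatocytes such as Mup11 (log2 ratio -8.25 in Cd3-positive and -8.80 in the other barcodes), Cyp2f2 and Fabp1. Xist was among the higher genes, here and in the Cd3-positive barcodes below. Sex, animal and library differed with the genotype, so these differences cannot be told apart from them.

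In the Cd3-positive barcodes alone, 103 against 10, 17 of 3023 genes were higher (0.562%) and 42 lower (1.39%). Ccl5 was found in 64 of 103 tetYAP 4W and 6 of 10 control barcodes, at 2224 and 431 CPM, a log2 ratio of 2.37 (1.72 to 3.11). The highest value of a barcode was 104 in the tetYAP 4W and 6 in the control library. Klf2 had 152 UMIs in 49 barcodes against 0 in 10, 4.43-fold higher with the floor (log2 lower limit 1.83). Rgs1, a brake on chemokine receptor signalling, had 135 UMIs in 46 against 0, 3.93-fold higher with the floor (log2 lower limit 1.66). In the other barcodes Klf2 and Rgs1 had log2 ratios of 3.14 and 3.64 and Ccl5 of 3.01, the same direction as in the Cd3-positive barcodes.

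For T cell genes the 10 control barcodes gave wide intervals, and of 9 naive and memory genes Klf2 alone was beyond 2-fold. Of the T cell receptor complex outside the rule 5 genes had at least 20 UMIs and 0 were beyond 2-fold, with a median of 1.07, and of 14 coreceptors and signalling genes 0, with a median of 0.59. Cxcr6 was found in 4 of 10 control barcodes (12.2 to 73.8) and 58.3% of tetYAP 4W ones (48.1 to 67.9). Trac was found in 7 of 10 and 68.9%. Cd8b1, Ccr7, Il7r and Ifng were at 0 in the 10 control barcodes, which allows up to 30% of barcodes with a UMI. The lone Cd3-zero control barcode held 3 UMIs of Gzma, 1 of Ncr1, 3 of Nkg7, 5 of Tyrobp, 2 of Fcer1g and 9 of Ccl5 among 3908 UMIs, the same NK cell genes that were found in the tetYAP 4W Cd3-zero barcodes.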

How the data were processed

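Single-cell RNA-seq counts of 1 control and 1 tetYAP 4W liver were used. The authors deposited raw counts, whole UMIs per gene and barcode, made with cellranger 3.0.0 at default settings on mm10 and filtered with Seurat 3; barcodes had been down-sampled to 3000 per condition and those above 7500 UMIs removed. The table holds 31053 genes. The members, gene lists, motifs and the Cxcr6 division were chosen with earlier results of these data known. No doublet caller was run.

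UMIs were summed per set of barcodes and scaled by the set total. Sums carry exact Poisson, shares exact binomial (Clopper-Pearson) and ratios exact conditional binomial intervals at 95%; PCR copies are removed by UMIs, and the intervals cover counting error only. A count of 0 was set to a floor of 3 UMIs per set, and such a ratio is a bound that leaves out the counting error of the other set. The lower limit given with it includes that error. For a gene found in 0 barcodes the share allowed is 3 over the number of barcodes, not the exact limit. For 0 of 11 it is 27.3% in place of 28.5%. Genes were named from the rule, from 16 lists (members with at least 20 UMIs), and as the 10 highest and 10 lowest ratios beyond 2-fold without ribosomal or mitochondrial genes; other names were chosen after their values were seen, and 2 genes are not reported here. The ratio function was tested on simulated counts. edgeR TMM factors served as an alternative scaling only. Coordinates and promoters are from RefSeq, GRCm38.p6, the build mm10 names. Python 3.11.15, scipy 1.17.1 and R 4.3.3 were used.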

Additional observations from a re-analysis of the deposited data

How the results depend on the processing

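Of 68 recomputed summary values 49 stayed within their limits and 19 moved. These are shares and counts of genes, for which a reversal of direction was not defined. Of 247 recomputed ratios of 19 genes 214 stayed within the interval of the main value and 0 reversed. The share of T and NK cell barcodes in tetYAP 4W, 8.27%, was 6.69% with a minimum of 10 rule UMIs, 6.496% with fewer than 5 macrophage UMIs, 18.0% without barcodes above 30% mitochondrial UMIs and 6.23% with each barcode thinned to 2000 UMIs. The control share, 0.368%, was 0.167% with the minimum of 10 and 0.173% after thinning, for which 91 shallower control barcodes were left out. The share of Cd3-positive members, 81.7%, was 71.4% after thinning. The 12 genes higher in Cd3-positive barcodes were 7 with fewer than 5 macrophage UMIs, 5 without barcodes above 30% mitochondrial UMIs, 4 after thinning and 7 without barcodes with markers of other cells. The 23 lower genes were 8 after thinning, 12 without barcodes with markers of other cells and 13 among genes with at least 50 UMIs. Against the other barcodes, 614 higher and 263 lower genes were 349 and 565 with totals without mitochondrial and the 50 most abundant genes, and 438 were lower with TMM factors. Between the libraries, 22 higher and 42 lower genes were 36 and 27 with TMM factors. Klra7, Tyrobp, Fcer1g, Klrd1, Prf1, Ccl5, Ms4a6b and Ltb stayed beyond 2-fold in all 13 alternatives, Cd28 in 10, Bcl11b in 9 and Lef1 in 8; bounds of genes at 0 fall with the number of UMIs kept. The thinned rule, the Cd3-positive members alone between the libraries, the mitochondrial limit between the libraries and the thinned Cxcr6 division were added after the data were seen. No paired analysis was possible because each group has 1 library. The 20 Cd3-zero barcodes and 11 control members limit what could be seen.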
